A study of Mus musculus with 16 samples.

Results

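The 5 genes Serpina1a, Serpina1b, Serpina1c, Serpina1d and Serpina1e, the mouse paralogues of alpha-1-antitrypsin, were followed across the jejunum and ileum of neonatal and weaned mice. They were taken by their gene symbols from the 24421 genes counted in each library, with earlier results of these data known, and were examined singly and as a sum. The data were bulk RNA sequencing of intestinal epithelial cells released with EDTA from wild-type C57BL6/J mice. The 4 groups were the jejunum and the ileum at postnatal day 6 (P6), during suckling, and at postnatal day 36 (P36), after weaning, with 4 libraries in each group. Every mouse gave a jejunum and an ileum library, and each age had 2 female and 2 male mice, numbered here so that mice 1 and 2 are female and mice 3 and 4 are male. By the first part of their labels the P6 mice formed pairs, mice 1 and 3 and mice 2 and 4, and what this part stands for was not given in the sources used here. The study asked how the neonatal jejunum and ileum differ and how this changes with weaning.

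Alpha-1-antitrypsin is a secreted serpin, an inhibitor that traps serine proteases. It presents an exposed stretch, the reactive centre loop, as bait: the protease cuts the loop, stays bound to it and is distorted as the loop inserts into the body of the serpin. The liver is the main source of the circulating protein, whose best known target is neutrophil elastase, and enterocytes of the small intestine also make it. Humans carry a single functional gene, whereas the mouse gene has been duplicated into a cluster whose members differ most in the loop. Serpina1a and Serpina1b encode the forms known to inhibit neutrophil elastase, and the other members encode forms with different loops.

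The genes lie next to each other on the minus strand of chromosome 12, within 228742 bases of mm10 (chr12:103728156-103956897). Serpina1b occupies chr12:103728156-103738189, Serpina1d chr12:103763587-103773633, Serpina1a chr12:103853295-103863619, Serpina1c chr12:103894926-103904950 and Serpina1e chr12:103946932-103956897. Each has a coding transcript of 1242 coding bases in GENCODE vM21 (GRCm38). The 5 coding sequences differed at 86 of these positions, or 6.9%, and pairs were between 96.3% and 98.5% identical. Serpina1a and Serpina1c were the closest pair, with 19 differing positions and an identical run of 728 bases. The first window of 60 bases with the most differences was coding bases 1101 to 1160, in exon 5 of 5, the exon that encodes the reactive centre loop. This stretch had 18 variable positions, against a median of 4 over the 1183 windows of that length. Some windows that overlap it, such as bases 1114 to 1173, had 18 too. The stretch from base 1101 is the one compared below. This stretch is shown because it is where the paralogues, and the reads that tell them apart, differ most. The sequences run 5′ to 3′ on the minus strand, from GENCODE transcripts, and capitals mark each position that varies among the 5.
Serpina1a (chr12:103853757-103853816): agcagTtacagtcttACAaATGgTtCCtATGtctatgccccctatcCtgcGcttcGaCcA
Serpina1b (chr12:103728324-103728383): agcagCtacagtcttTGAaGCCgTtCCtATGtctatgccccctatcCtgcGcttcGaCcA
Serpina1c (chr12:103895094-103895153): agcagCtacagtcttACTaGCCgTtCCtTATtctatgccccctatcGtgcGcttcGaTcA
Serpina1d (chr12:103763762-103763821): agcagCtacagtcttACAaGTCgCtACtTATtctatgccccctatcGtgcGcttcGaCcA
Serpina1e (chr12:103947100-103947159): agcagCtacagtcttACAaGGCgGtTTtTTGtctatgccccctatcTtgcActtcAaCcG
Within these 60 bases Serpina1c and Serpina1d differed from each other at 5 positions and Serpina1a and Serpina1b at 6. Serpina1e was the most distant, differing from the other members at between 10 and 12 positions.

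**Figure D1:**
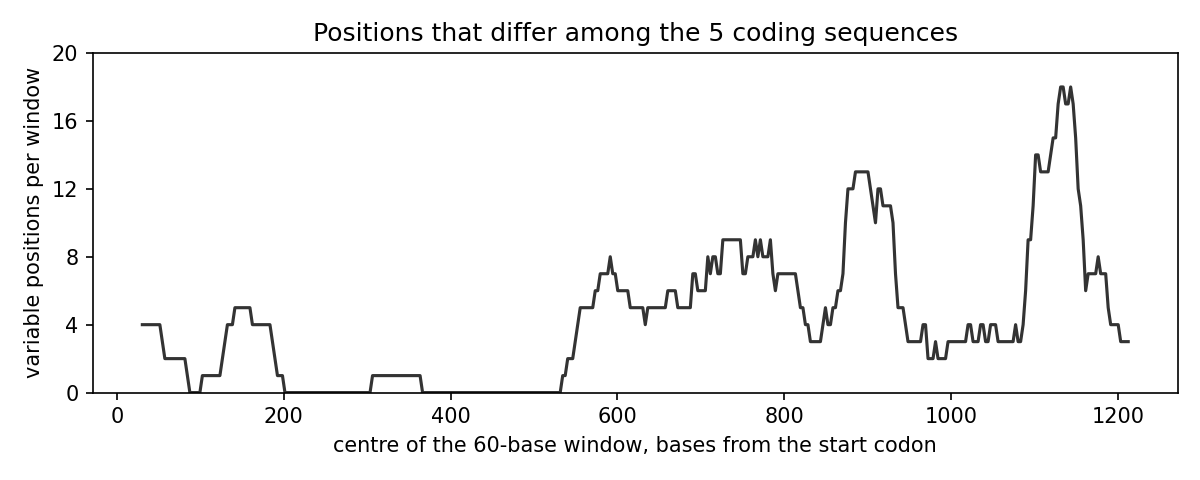
Number of positions that differ among the 5 coding sequences (y axis, positions per window) in windows of 60 bases, against the centre of the window in bases from the start codon (x axis). The highest peak, of 18 positions, lies near the 3′ end, and most windows hold few differences.

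The near identity limits the counts. The authors' counting left out read pairs that aligned to more than 1 place, so only pairs covering a difference could be assigned. Of the 100-base stretches of each transcript, 81.8% were found in no other gene's GENCODE transcript for Serpina1e, 73.6% for Serpina1b and 70.7% for Serpina1d. This share was only 50.1% for Serpina1a and 30.7% for Serpina1c. At 50 bases the shares fell to between 20.7% (Serpina1c) and 62.1% (Serpina1e). The stretches shared with genes outside the 5 matched the pseudogene Gm8893 and the antisense transcript B430119L08Rik. The part of a transcript that could be counted was thus smallest for Serpina1c and Serpina1a. Single counts of the 5 are uncertain, most of all a small count of a paralogue beside a large count of another.

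The promoters were compared because all 5 genes were lower at P36 than at P6 in each region, as described below. RefSeq promoter windows (GRCm38.p6, 250 bases before to 50 after the start site) were found for 5 of 5 members. Pairs were between 91.7% and 98.4% identical over the bases that aligned without gaps. These were 238 to 249 bases for pairs with Serpina1e and 288 to 298 for the other pairs.

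Library totals ranged from 12159237 to 25947276 counts. Epithelial genes were present in every library, with the summed level of 6 markers (Epcam, Cdh1, Vil1, Krt8, Krt20 and Alpi) between 5130 and 16200 CPM (a count relative to its library's total after edgeR's TMM scaling). Liver and pancreas were looked for because they make alpha-1-antitrypsin or its target proteases. The 10 hepatocyte markers summed to between 3.54 and 8.59 CPM in the P6 jejunum and between 40.9 and 68.1 CPM in the P6 ileum, and 8 of the 10 had a count in each of these groups. The fibrinogen genes carried most of these sums, with Fga at 2.2 to 7.02 CPM in the P6 jejunum and 25.6 to 54.2 CPM in the P6 ileum, and Fgb at 3.53 to 21.5 CPM in the P6 ileum. Alb, which encodes serum albumin and is among the most abundant liver transcripts, had 0 counts in all 4 P6 jejunum libraries and 3, 0, 1 and 2 in the P6 ileum of mice 1 to 4, and Cyp7a1, the rate-limiting enzyme of bile acid synthesis, had 0 in all 16. At P36 the hepatocyte sums were 1.76 to 3.47 CPM (jejunum) and 16.7 to 31.4 CPM (ileum), where Tat led. None of the 6 pancreatic acinar markers had a count in the P6 jejunum. The 6 macrophage markers summed to between 417 and 503 CPM in the P6 jejunum and between 158 and 351 CPM in the P6 ileum, against at most 21.2 CPM at P36. Csf1r made up nearly all of it, with 415 to 498 CPM in the P6 jejunum, while Adgre1 had 1, 6, 5 and 5 counts there. Paneth cell markers summed to between 20.9 and 802 CPM at P6 and between 4220 and 14500 CPM at P36, where the paralogues were low. The width of the P6 range came from Itln1, which was at 782, 557, 620 and 435 CPM in the jejunum of mice 1 and 3 and the ileum of mice 1 and 3, against 4.36 to 10.3 CPM in mice 2 and 4. The summed smooth muscle and fibroblast markers reached 348 CPM in the P6 ileum of mouse 2, against a median of 25.5 CPM in that group. The 4 goblet cell markers had median sums of 1830 and 3330 CPM in the P6 jejunum and ileum, and of 7980 and 13800 CPM at P36. Median sums over the groups were 116 to 180 CPM for enteroendocrine, 0.642 to 5.83 CPM for T cell and 1.15 to 3.88 CPM for endothelial markers. Whether these other markers bear on the results below was not tested. In bulk RNA, fewer cells of a type and less RNA per cell cannot be told apart.

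The P6 jejunum library of mouse 3 stood apart for 4 of the 5 genes, with less Serpina1a and Serpina1e and more Serpina1b and Serpina1c than the other 3. Where leaving it out changed a call or moved a fold or a mean by more than 1.5 times, the value without it is given. Over all genes the P6 ileum library of mouse 4 stood apart from its group, with a chi-square per gene of 187 to 225 against the other 3, which were at 16.8 to 34.5 among themselves. Krt8 was at 256 CPM in it and at 1110 to 1330 CPM in the others, and Fcgbp, a goblet cell gene, was at 461 and at 1750 to 2000 CPM. Without it the same members were called in each regional and age comparison and in the interaction. A value as high, 217, was found between the P36 ileum libraries of mice 1 and 3.

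At P6, Serpina1a and Serpina1e were higher in the jejunum and Serpina1b was higher in the ileum, while Serpina1c and Serpina1d showed no regional difference past the test. A gene was called when the adjusted p of edgeR's quasi-likelihood test was below 0.05 and the absolute log2 fold change was above 2. By this rule 3 of 5 members were called at P6, against 6.5% of all 13429 genes tested. The libraries of the regions did not overlap for the same 3 members, against 30.1% of all genes tested.

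Serpina1a showed the widest gap between the regions. Its P6 jejunum level was 302.1, 279.9, 119.7 and 274.6 CPM in mice 1 to 4. In the ileum of the same mice it was 3.70, 6.16, 1.36 and 3.53 CPM. Every jejunum library was thus far above every ileum library. The means were 244.1 ± 83.8 and 3.69 ± 1.97 CPM (SD, n = 4), a ratio of 66.2. The log2 fold change of jejunum over ileum was 6.04 (SE 0.45, edgeR adjusted p = 1.637e-07).

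Serpina1e, the most distant of the 5 in the 60 coding bases shown above, was the most abundant member of the P6 jejunum. Its jejunum level was 814.9, 833.8, 309.3 and 815.4 CPM in mice 1 to 4. The ileum level was 46.7, 50.2, 16.8 and 53.1 CPM. The groups did not overlap, and mouse 3 was the lowest in each region. The log2 fold change of jejunum over ileum was 4.05 (SE 0.41, edgeR adjusted p = 3.135e-06), with means of 693.4 ± 256.2 and 41.7 ± 16.8 CPM (SD, n = 4).

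Serpina1b ran the other way. Its P6 jejunum level was 11.2, 7.27, 32.9 and 8.04 CPM in mice 1 to 4. In the ileum it was 100.8, 79.9, 47.7 and 79.0 CPM. The ileum was higher in every mouse and the groups did not overlap, although in mouse 3 the regions lay close together, with its jejunum the highest and its ileum the lowest of their groups. The log2 fold change of jejunum over ileum was -2.38 (SE 0.46, edgeR adjusted p = 0.001378). Without the P6 jejunum of mouse 3 it was -3.12 (SE 0.39, edgeR adjusted p = 6.155e-05).

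Serpina1c and Serpina1d were low in each region at P6. Serpina1c was at 2.92, 1.61, 10.6 and 2.44 CPM in the jejunum and at 6.02, 3.62, 2.01 and 3.29 CPM in the ileum of mice 1 to 4. These groups overlapped, and in 3 of the 4 mice the ileum was the higher. Its log2 fold change was 0.23 (SE 0.50, edgeR adjusted p = 0.781) and turned to -0.68 (SE 0.41, edgeR adjusted p = 0.2573) without the P6 jejunum of mouse 3. Serpina1d was at 7.11, 4.82, 5.99 and 6.18 CPM in the jejunum and at 6.02, 2.5, 2.33 and 2.5 CPM in the ileum. The jejunum was higher in each mouse, but the groups overlapped. Its log2 fold change was 0.85 (SE 0.46, edgeR adjusted p = 0.1887).

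Within the label pairs of P6 mice the log2 ratio of mean CPM, jejunum over ileum, was 6.38 (mice 1 and 3) and 5.84 (mice 2 and 4) for Serpina1a. For Serpina1e it was 4.15 and 4.0, and for Serpina1b -1.75 and -3.37, so the direction of the 3 called members was shared by both pairs. Serpina1d was at 0.649 and 1.14. Serpina1c changed direction, with 0.747 in the pair that holds mouse 3 and -0.77 in the other.

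**Figure D2:**
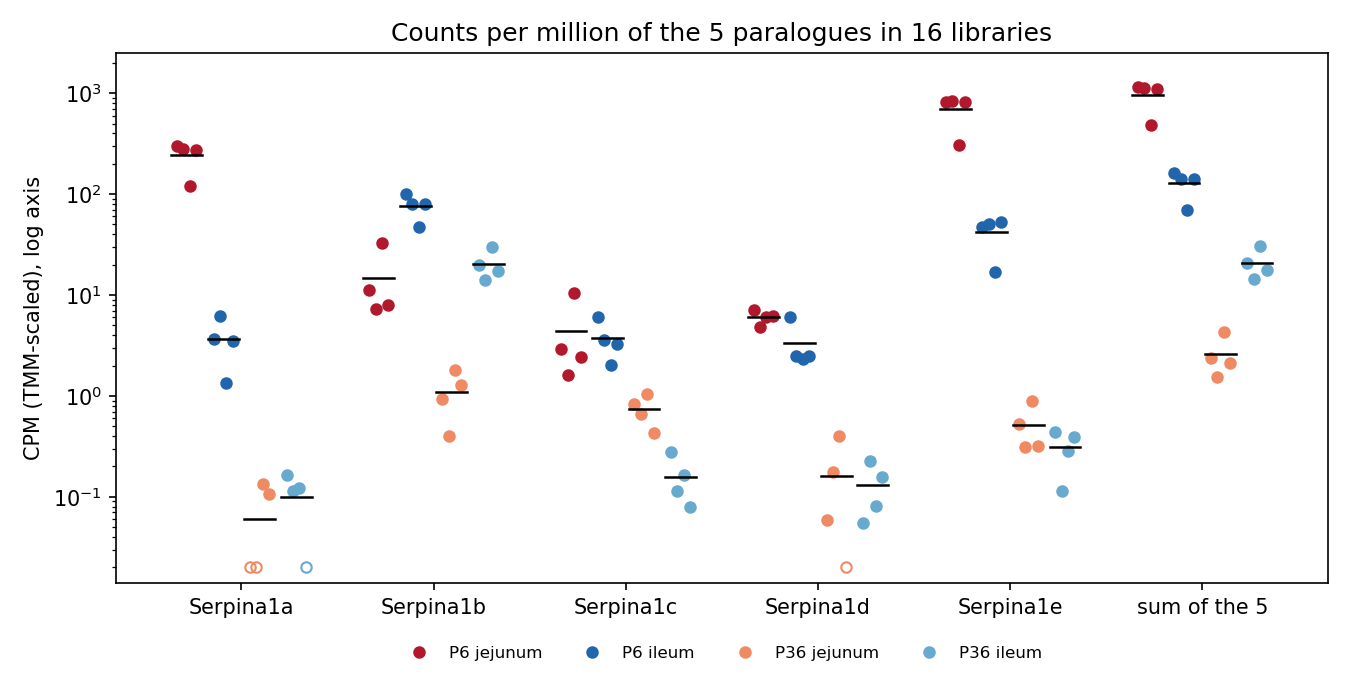
Level of each paralogue and of their sum in the 16 libraries, in TMM-scaled CPM on a log axis (y axis), by gene (x axis) and group (colour). Filled points are libraries, open points at the foot are libraries with 0 counts, and black bars are means of 4 libraries. Serpina1a and Serpina1e are highest in the P6 jejunum, Serpina1b is highest in the P6 ileum, and Serpina1b is the only member above 2 CPM at P36.

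At P36, Serpina1b was again higher in the ileum, and the other 4 members were near the limit of detection. The number of members called between the regions was 2 of 5, against 3.6% of all genes tested, and the same 2, Serpina1b and Serpina1c, had groups that did not overlap, against 26.9% of all genes tested. Serpina1b was at 0.942, 0.397, 1.80 and 1.28 CPM in the jejunum and at 19.8, 13.9, 30.1 and 17.2 CPM in the ileum of mice 1 to 4. The ileum was higher in every mouse, by a ratio of means of 18.4. The log2 fold change of jejunum over ileum was -4.20 (SE 0.54, edgeR adjusted p = 6.529e-05).

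Serpina1c was the reverse, with 14, 15, 23 and 8 counts in the P36 jejunum and 5, 2, 4 and 1 counts in the ileum. Its groups did not overlap, at 0.736 ± 0.256 and 0.158 ± 0.0862 CPM (SD, n = 4). The log2 fold change was 2.14 (SE 0.68, edgeR adjusted p = 0.04395), close to the threshold. With the mouse as a block the adjusted p was 0.07138 and the call was lost. Serpina1a had 5 counts in all in the P36 jejunum and 8 in the ileum, Serpina1d had 14 and 9, and Serpina1e had 42 and 22. For these 3 genes a regional difference was not detectable at this depth, with edgeR adjusted p-values of 0.7344, 0.7847 and 0.4779.

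From P6 to P36 every member was lower in each region. In the jejunum 5 of 5 members were called lower at P36, against 8.59% of all genes tested, and none of the 5 had overlapping groups, against 63.8% of all genes without overlap. Serpina1a went from 21214 counts over the 4 P6 libraries to 5 over the 4 P36 libraries, of which mice 1 and 2 had none. Its log2 fold change of P36 over P6 was -11.81 (SE 0.66, edgeR adjusted p = 6.223e-10), a size that is loosely determined because so few counts were left. The ratio of its mean CPM values was 4050. Serpina1e went from 60289 to 42 counts, with a log2 fold change of -10.37 (SE 0.56, edgeR adjusted p = 4.636e-10).

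The members with fewer counts in the P6 jejunum had smaller fold changes. Serpina1d went from 514 to 14 counts, with a log2 fold change of -5.11 (SE 0.59, edgeR adjusted p = 2.62e-06). Serpina1b went from 1213 to 89 counts, at -3.74 (SE 0.53, edgeR adjusted p = 2.291e-05). Without the P6 jejunum of mouse 3 its log2 fold change was -3.0 (edgeR adjusted p = 1.961e-05). Serpina1c had the smallest fall, from 355 to 60 counts, at -2.55 (SE 0.55, edgeR adjusted p = 0.001141). That call rested on the fold minimum: without the P6 jejunum of mouse 3 the log2 fold change was -1.65 (edgeR adjusted p = 0.00476).

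In the ileum 4 of 5 members were called lower at P36, against 10% of all genes tested. The groups did not overlap for 5 of 5 members, against 44.4% of all genes tested. Serpina1e fell the most, from 3504 to 22 counts, with a log2 fold change of -7.07 (SE 0.53, edgeR adjusted p = 2.184e-08). Serpina1a went from 315 to 8 counts (log2 fold change -5.01, SE 0.63, edgeR adjusted p = 6.14e-06). Serpina1d went from 274 to 9 counts and Serpina1c from 310 to 12, with log2 fold changes of -4.67 and -4.47 and edgeR adjusted p-values of 1.141e-05 and 3.295e-05. Serpina1b, the member kept at P36, was the exception. It was at 76.9 ± 21.9 CPM at P6 and at 20.3 ± 6.99 CPM at P36 (SD, n = 4). Its log2 fold change of -1.92 (SE 0.46, edgeR adjusted p = 0.002126) passed the p threshold and missed the fold minimum. The comparisons of the ages share libraries with those of the regions, so the 4 sets of values are not independent.

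**Figure D3:**
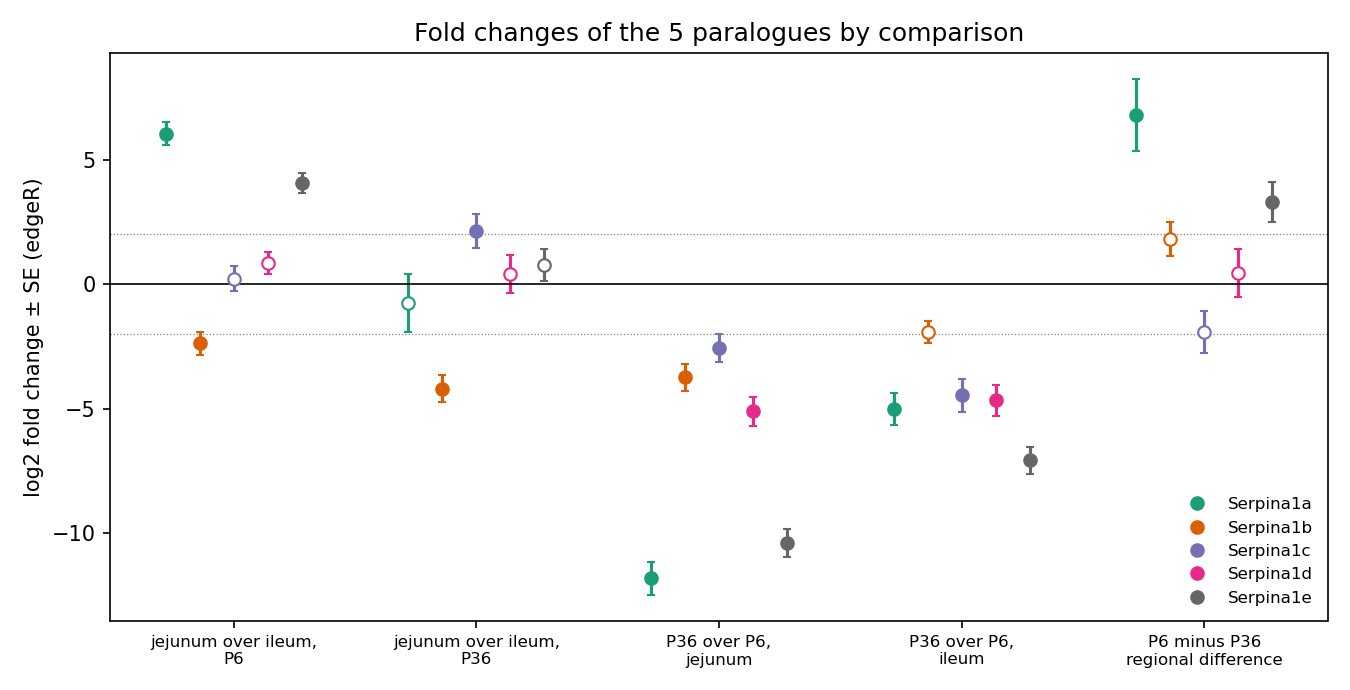
edgeR log2 fold change of each paralogue (y axis, points with bars of 1 SE) in 5 comparisons (x axis). Filled points were called and open points were not. Dotted lines mark the minimum absolute log2 fold change of 2, which the comparison at the far right does not use. All 5 members lie below 0 in each age comparison, whereas the P6 regional comparison has Serpina1a and Serpina1e above and Serpina1b below 0.

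The regional difference itself was compared between the ages by a region-by-age interaction, with no fold minimum. The regional log2 fold change was larger at P6 than at P36 for Serpina1a, by 6.80 (SE 1.44, edgeR adjusted p = 0.00746), and for Serpina1e, by 3.30 (SE 0.79, edgeR adjusted p = 0.01555). Of all genes tested, 8.69% were called in either direction and 3.68% in this one. Each interaction leans on the few P36 counts given above, and that of Serpina1e had an adjusted p of 0.05604 in libraries thinned to the smallest total and of 0.05203 without the P36 ileum library of mouse 1. For Serpina1b the difference was 1.82 (SE 0.67, edgeR adjusted p = 0.1132), or 1.08 without the P6 jejunum of mouse 3 (edgeR adjusted p = 0.2381), and for Serpina1d 0.44 (SE 0.96, edgeR adjusted p = 0.8144). For Serpina1c it was -1.91 (SE 0.85, edgeR adjusted p = 0.1912), and -2.82 (SE 0.64, edgeR adjusted p = 0.0148) without the P6 jejunum of mouse 3, a call that the full data did not give.

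Placed in order of mean CPM, the groups ranked differently for different members. Serpina1a and Serpina1e were highest in the P6 jejunum, then the P6 ileum, and their P36 groups overlapped. Serpina1b was highest in the P6 ileum, followed by the P36 ileum and the P6 jejunum, which overlapped, and then the P36 jejunum. That overlap came from mouse 3: the other 3 P6 jejunum libraries, at 7.27 to 11.2 CPM, lay below the 13.9 to 30.1 CPM of the P36 ileum. Serpina1c and Serpina1d had overlapping P6 groups above the P36 groups, which overlapped for Serpina1d and not for Serpina1c.

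Summed over the 5 genes, the family was highest in the P6 jejunum and lowest in the P36 jejunum. The sum was 1138, 1127, 478.4 and 1107 CPM in the P6 jejunum of mice 1 to 4. In the P6 ileum it was 163.3, 142.4, 70.2 and 141.3 CPM. At P36 it was 2.35, 1.54, 4.26 and 2.13 CPM (jejunum) and 20.7, 14.5, 30.8 and 17.9 CPM (ileum). No neighbouring groups in this order overlapped. The summed level was therefore higher in the jejunum at P6, by 2.88 on the log2 CPM scale, and higher in the ileum at P36, where the difference of jejunum minus ileum was -3.02. The sum is a description and was given no test. Serpina1a and Serpina1e made up nearly all of it in the P6 jejunum and Serpina1b nearly all of it in the P36 ileum.

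The make-up of the family was therefore compared as each member's share of the summed count in its library, which does not depend on scaling. In the P6 jejunum Serpina1e held 71.0 ± 4.34% and Serpina1a 25.3 ± 0.833% (SD, n = 4). In the P6 ileum Serpina1b held 60.4 ± 5.71% and Serpina1e 31.3 ± 6.22%, with 2.76 ± 1.07% for Serpina1a. In the P36 ileum Serpina1b held 96.5 ± 1.02%. The P36 jejunum was mixed, with 42.0 ± 14.1% for Serpina1b, 30.5 ± 10.4% for Serpina1c and 19.6 ± 3.26% for Serpina1e, on only 35 to 95 counts a library. A single share there is loose: in mouse 2, 15 of 35 counts gave Serpina1c 42.9% (95% exact Clopper-Pearson interval 26.3 to 60.6, for counting error only).

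Of 20 share comparisons (5 members in 2 regional and 2 age comparisons), 17 passed a two-sided exact permutation test, each at p = 0.0286, the smallest that 4 libraries against 4 allow, and at 0.0336 after Benjamini-Hochberg adjustment. These 17 are not independent, since the shares of a library add up to the whole. The difference of jejunum minus ileum in the share of Serpina1b was -58.1 percentage points at P6 and -54.5 at P36, with the ileum higher in 4 of 4 mice each time. The share rose with age by 39.6 points in the jejunum and by 36.1 in the ileum, although the level of Serpina1b fell in each region. The share of Serpina1e was 39.6 points higher in the jejunum at P6 and 18.1 points higher at P36. Although its level fell, the share of Serpina1c moved up with age in the jejunum, from 0.707% to 30.5%. In the ileum the share moved down, from 2.85% to 0.772%. Mouse 3 carried the first of these values, and the other 3 P6 jejunum libraries held 0.207 ± 0.0584% (SD, n = 3). The 3 comparisons that did not pass were the share of Serpina1a between the regions at P36 (exact permutation p = 0.429) and that of Serpina1d between the regions at P36 and with age in the jejunum (exact permutation p = 0.143 each).

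**Figure D4:**
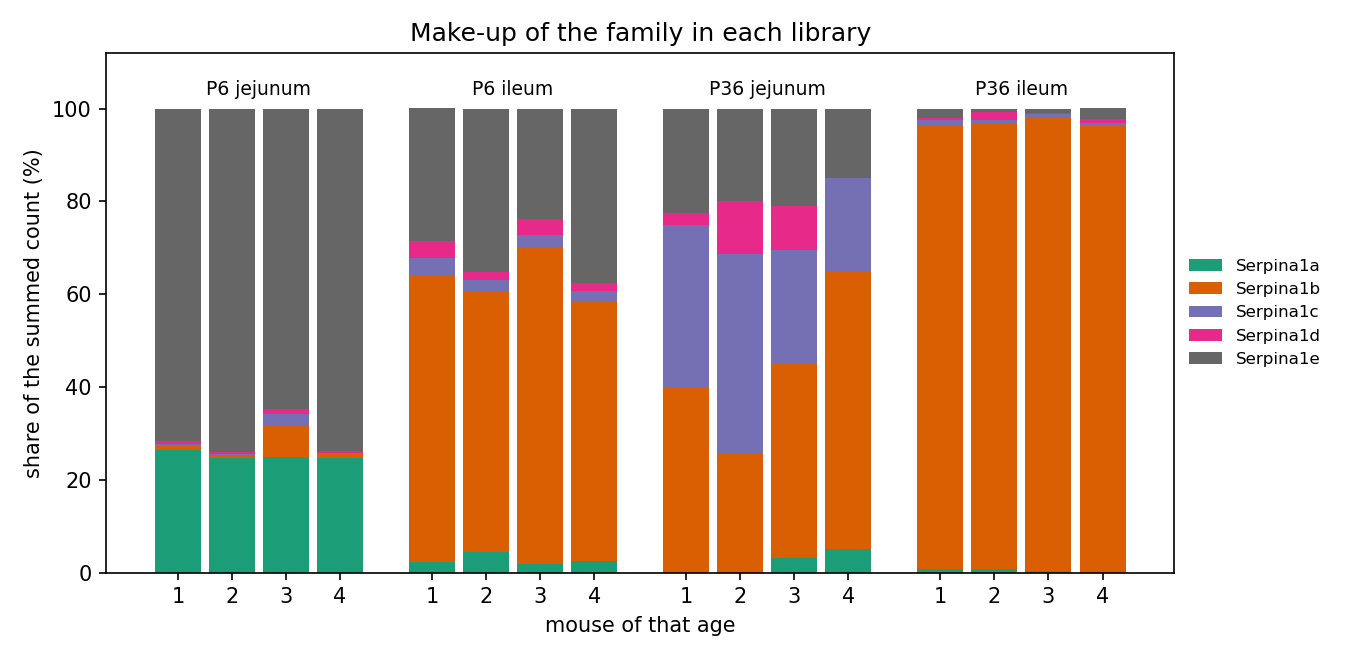
Share of the summed count of the 5 paralogues held by each (y axis, percent, stacked to the whole) in every library (x axis, mouse number within its age), by group. Serpina1e and Serpina1a fill the P6 jejunum, Serpina1b and Serpina1e the P6 ileum and Serpina1b the P36 ileum, and the P6 jejunum of mouse 3 has a wider Serpina1b band than the other 3.

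Levels of different genes can be compared only per length, and here only loosely, given the shared sequence. In CPM per kilobase of exon in the P6 jejunum, Serpina1e was at 505.0 ± 186.6, Serpina1a at 125.9 ± 43.2, Serpina1b at 10.4 ± 8.52, Serpina1d at 4.18 ± 0.653 and Serpina1c at 3.08 ± 2.92 (SD, n = 4). Without mouse 3 Serpina1b was at 6.2 ± 1.45 and Serpina1c at 1.63 ± 0.468 (SD, n = 3), in the same order. In the P6 ileum the order was Serpina1b at 53.9 ± 15.4, Serpina1e at 30.4 ± 12.2, Serpina1c at 2.62 ± 1.18, Serpina1d at 2.32 ± 1.24 and Serpina1a at 1.90 ± 1.01 CPM per kilobase. Serpina1a thus stood next to the top in the P6 jejunum. In the P6 ileum it was low, beside Serpina1c and Serpina1d, from which it differed by less than the SD. These values divide by the full exon length and not by the part that could be counted. The order of the low members is therefore not settled.

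In mouse 3, Serpina1a and Serpina1e were low at P6 in both regions. Its jejunum level was 0.419 times the mean of the other 3 mice for Serpina1a and 0.377 times for Serpina1e. Its ileum was the lowest of the 4 for all 5 members, and the sum there was 70.2 CPM, against 141.3 to 163.3 CPM in the others. Serpina1b and Serpina1c in its jejunum were 3.72 and 4.54 times the mean of the other 3, and Serpina1d was 0.992 times that mean. Its share of Serpina1b in the jejunum was 6.87%, against 0.981%, 0.645% and 0.727% in mice 1, 2 and 4. Its share of Serpina1a, at 25%, was within the 24.8 to 26.5% of the others. As a measure of how jejunal this library was, chosen after its values were seen, each P6 library was placed on a scale from 0 at the ileum mean to 1 at the jejunum mean, over the other genes called between the regions without it. Over 838 genes the median place of the mouse 3 jejunum was 0.924, against 0.977, 0.974 and 1.01 for the other jejunum libraries and 0.0515 to 0.0877 for the ileum libraries.

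**Figure D5:**
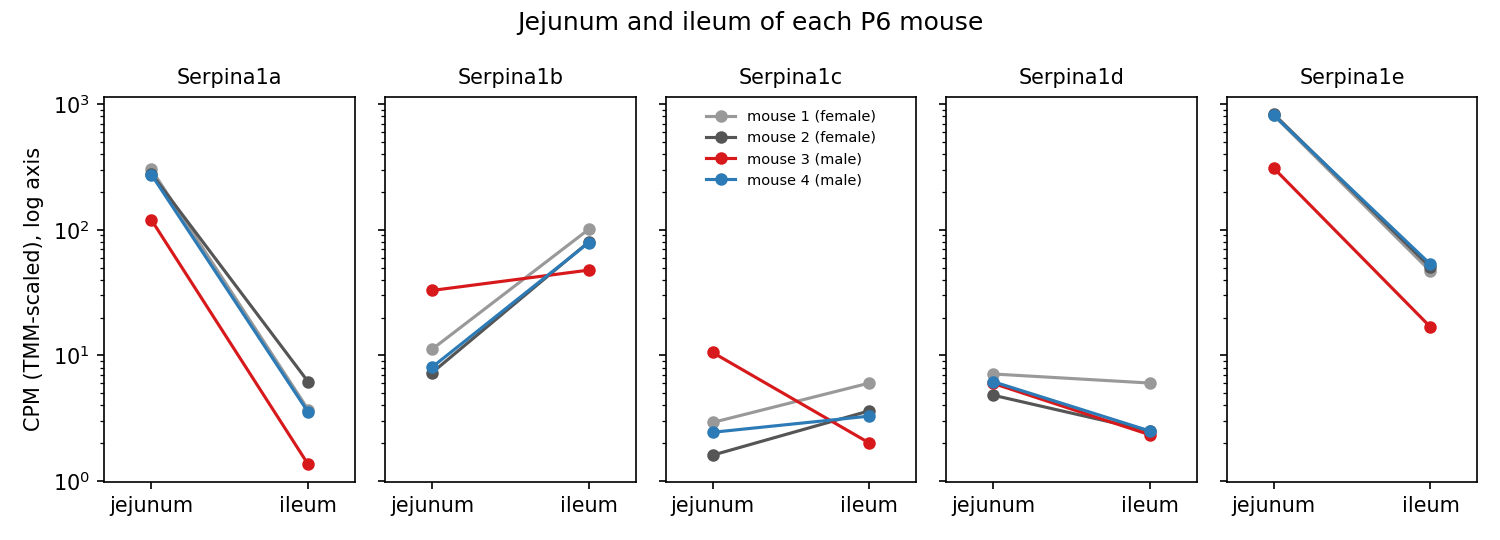
Level of each paralogue in the jejunum and ileum of each P6 mouse (lines), in TMM-scaled CPM on a log axis (y axis). Lines fall from jejunum to ileum in every mouse for Serpina1a and Serpina1e and rise in every mouse for Serpina1b, and mouse 3 crosses the others for Serpina1c.

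No member was called between the sexes. In fits of the 8 jejunum or the 8 ileum libraries with age as a covariate, 0 of 5 members were called at an adjusted p below 0.05, against a background of 0.0554% of genes (jejunum) and 0.039% (ileum). At an unadjusted edgeR p below 0.05 there was 1 of 5 in the jejunum, Serpina1b, and 0 in the ileum, against 4.36% and 1.29% of all genes tested. Serpina1b had a log2 fold change of male over female of 1.18 (SE 0.45, unadjusted p = 0.02825, adjusted p = 0.9969). Without the P6 jejunum of mouse 3 it was 0.50 (SE 0.40, unadjusted p = 0.2532, edgeR adjusted p = 0.7885). Its jejunum levels were 7.27 and 11.2 CPM in the females and 8.04 and 32.9 CPM in the males at P6, which overlapped, and 0.397 and 0.942 CPM against 1.28 and 1.80 CPM at P36. Without the P6 ileum of mouse 4, Serpina1a and Serpina1e had unadjusted edgeR p-values of 0.04328 and 0.04962 in the ileum, with log2 fold changes of -1.52 and -1.03, and adjusted p-values of 0.9768. With DESeq2 0 of 5 members were called in either region.

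Genes around alpha-1-antitrypsin were taken from 5 hand-made lists. Of 20 other clade A serpins, the wider family that also carries hormones and inhibits blood clotting, only 2 had enough counts to be tested. Serpina10, the inhibitor of clotting factor Xa that works with protein Z, was higher in the ileum like Serpina1b. It was at 0.0951 ± 0.0411 CPM (jejunum) and 2.44 ± 1.78 CPM (ileum) at P6 (SD, n = 4), with a log2 fold change of -4.60 (SE 0.88, edgeR adjusted p = 0.001174). At P36 it was at 0.689 ± 0.583 and 8.38 ± 5.47 CPM, with a log2 fold change of -3.58 (SE 0.72, edgeR adjusted p = 0.002689). It was the 1 of the 2 called between the regions at each age, against 6.5% (P6) and 3.6% (P36) of all genes tested. Unlike the 5 paralogues it was called higher at P36 in the jejunum, by 2.80 (SE 0.93, edgeR adjusted p = 0.01929). So was Serpina3g, a serpin of activated immune cells, by 2.83 (SE 1.10, edgeR adjusted p = 0.04137), against 7.86% of all genes tested. In the ileum neither was called with age, at log2 fold changes of 1.78 (Serpina10, edgeR adjusted p = 0.02862) and 0.63 (Serpina3g, edgeR adjusted p = 0.616). Serpina1f, which lies beside the cluster at chr12:103688044-103695529, had 9, 35, 17 and 27 counts in all in the P6 jejunum, P6 ileum, P36 jejunum and P36 ileum and was not tested.

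Of 22 serine proteases that serpins of this kind can inhibit, 7 were tested. At P6, 2 were called with the jejunum and 1 with the ileum higher, against 2.2% and 4.3% of all genes tested. Ctrb1, which encodes the digestive protease chymotrypsinogen, was at 179 ± 93.5 CPM (jejunum) and 1.44 ± 1.12 CPM (ileum) at P6 (SD, n = 4), a log2 fold change of 6.93 (SE 0.65, edgeR adjusted p = 1.548e-06). At P36 it had 4 counts in all in the jejunum libraries and 5 in those of the ileum. Its level was thus highest in the P6 jejunum and near 0 at P36, as was that of Serpina1a. Cela1, a pancreatic-type elastase, was higher in the P6 jejunum by 2.97 (SE 0.25, edgeR adjusted p = 5.478e-07), and Klk1, tissue kallikrein, was higher in the P6 ileum (log2 fold change -2.37, edgeR adjusted p = 0.0001597). None of the 7 was called by edgeR between the regions at P36, where 2 had an unadjusted p below 0.05, against 29% of all genes tested. With age, 2 were called up and 2 down in the jejunum, against 7.86% and 8.59% of all genes tested. In the ileum 3 were called up and 1 down, against 6.4% and 10%. Tmprss2, a protease of the apical membrane, and Klk1 were the ones called up in each region, at log2 fold changes of 2.55 and 5.38 in the jejunum and 2.83 and 4.31 in the ileum.

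The 20 genes for folding, export and disposal of alpha-1-antitrypsin in the secretory pathway, such as its cargo receptor Lman1, the chaperone Canx and the disposal factor Edem1, were all tested with edgeR and 0 were called in any of the 5 comparisons. At an unadjusted p below 0.05, without the fold minimum, there were 10 and 5 of them between the regions at P6 and P36, 8 and 10 with age in the jejunum and ileum, and 2 in the interaction. The shares of all genes tested were 37.7% and 29%, 57% and 60.4%, and 22.9% in the same order. Their median log2 fold changes lay between -0.1639 and 0.0554, near those of all tested genes (-0.0463 to -0.0113). Of 9 receptors that take up or clear serpins and other proteins, 7 were tested and none was called by edgeR between the regions at P6 or P36. Without the fold minimum, 7 and 2 of them had an unadjusted edgeR p below 0.05, against 37.7% and 29% of all genes tested. Their median log2 fold change of jejunum over ileum was -1.4144 at P6, toward the ileum, and -0.2003 at P36. With age, 2 were called down in the jejunum and 3 in the ileum, against 8.59% and 10% of all genes tested. Lrp2, the endocytic receptor megalin, and Scarb1, a lipoprotein receptor, fell in each region, with log2 fold changes of -7.03 and -4.17 in the jejunum and -8.93 and -3.76 in the ileum. Cubn, the receptor cubilin, was called lower at P36 in the ileum only (log2 fold change -2.17, edgeR adjusted p = 0.001951). It went from 2260 ± 600 to 501 ± 393 CPM there and from 847 ± 98.3 to 248 ± 60.3 CPM in the jejunum (SD, n = 4).

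Among 22 genes listed as regulators of the alpha-1-antitrypsin gene, 20 were tested. At P6, 2 were called with the jejunum and 1 with the ileum higher, against 2.2% and 4.3% of all genes tested. At P36, 2 were called with the jejunum and 0 with the ileum higher, against 3.6% in either direction. With age, 2 were called up and 2 down in the jejunum, against 7.86% and 8.59%. In the ileum 1 was called up and 3 down, against 6.4% and 10%. Onecut2, a factor of the liver and proximal gut, was at 51.7 ± 28.7 CPM (jejunum) and 1.89 ± 1.23 CPM (ileum) at P6 (SD, n = 4), with a log2 fold change of 4.76 (SE 0.51, edgeR adjusted p = 5.407e-06). In the P36 jejunum, where Serpina1a and Serpina1e were near 0, it was at 48.4 ± 13.1 CPM. Gata4, which marks the proximal small intestine, was higher in the jejunum by 3.28 at P6 and 4.17 at P36 (edgeR adjusted p = 0.008436 and 0.003723). Prdm1, a repressor that holds the intestinal epithelium in its neonatal state, fell with age like the 5 paralogues, with log2 fold changes of -4.98 (jejunum) and -5.72 (ileum) (edgeR adjusted p = 6.375e-09 and 2.259e-09). Cebpd, an acute-phase factor, was called up with age in each region, at log2 fold changes of 5.66 and 3.61. Whether any of these listed genes regulates the paralogues in this epithelium was not tested.

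The genes whose log2 CPM ran most like the family were found by Pearson's r over the 16 libraries among 13424 other genes, as a description in which group differences carry most of r. For the summed family they were Tmem65 and Shisa5 (r = 0.974 each), Ccnjl (0.970), Endod1 (0.969) and Kbtbd13 (0.966). Serpina1a was most like Olah (0.993), which encodes a thioesterase of medium-chain fatty acid synthesis, Lrrc4 and Ifit2 (0.989 each). Serpina1e was most like Cldn19 (0.990), a claudin of tight junctions, Lrrc4 (0.990) and 1700034O15Rik (0.988). Lrrc4, on the lists of both, was at 44.5 ± 6.07 CPM (jejunum) and 4.00 ± 1.48 CPM (ileum) at P6 (SD, n = 4), and at 0.159 ± 0.0794 and 0.208 ± 0.0288 CPM in the P36 jejunum and ileum.

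Serpina1b had other companions, at lower r. They were Evi5l (0.954), Cpne8 (0.95) and Fgfr2 (0.938), the receptor for fibroblast growth factors. Cpne8 was at 10.9 ± 3.89 and 110 ± 20.6 CPM in the P6 jejunum and ileum and at 0.439 ± 0.406 and 8.82 ± 2.88 CPM at P36 (SD, n = 4). Serpina1c was most like Rcan1 (0.934), Cd46 (0.933) and Prr5l (0.931), and Serpina1d was most like Kcnq1ot1 (0.977), Gpr50 (0.974) and Plagl2 (0.970).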

How the data were processed

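Epithelial RNA of 16 libraries, 4 in each group, was analysed. The authors prepared stranded libraries (Kapa), used Trimmomatic 0.38 for trimming and STAR for alignment to mm10 (its version differs between the paper and the submitters' processing notes) and took exon counts of read pairs with featureCounts (Subread 1.6.3), reverse strand, on UCSC gene models. The deposited files hold raw counts per gene, and pairs aligning to several places or genes were not counted. Counts were filtered by filterByExpr (13429 genes kept), scaled by TMM and fitted by quasi-likelihood with edgeR 4.0.16 in R 4.3.3, with 4 group means and no block, as the study's methods name none. DESeq2 1.42.0 was an alternative. P-values were adjusted by Benjamini-Hochberg over all tested genes, the fold minimum is that of the study, SE is the log2 fold change over the square root of F, and a prior count of 2 entered log2 CPM.

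The labels tie the jejunum and ileum libraries of a mouse together. Deviations from the group means, across genes, correlated within mice at 0.157 to 0.391, against means of -0.106 (P6) and -0.101 (P36) between mice. Such deviations cancel over the mice of a group. The values between mice therefore follow largely from those within mice and are no separate reference. No replicates were copies: the chi-square per gene between them was 11 to 225. Coding sequences were taken from GENCODE vM21 and promoters from RefSeq, aligned with MAFFT 7.526. Shares were tested with scipy. The fits were tested on simulated data.

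The 5 members and the gene lists were chosen with earlier results of these data known. Named genes are the 5 members, up to 4 called genes per list and comparison by smallest adjusted p, and the 5 genes most like the sum and 3 most like each member by Pearson's r. Lman1, Canx, Edem1 and Serpina1f, and the single marker genes, were named outside that rule, with values seen. Some of the listed regulators are counted in the list but not reported by name here. Single-cell and knockout data of the study were not analysed here.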

Additional observations from a re-analysis of the deposited data

Results flagged for a closer look

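Values of each member and of the sum in each group, and each member's share in each group, were tested for a library far from the other 3 (Dixon's test, 95%), 44 sets in all, of which chance flags about 1 in 20. The P6 jejunum of mouse 3 accounted for most of those found. It was the lowest of its group for Serpina1a (119.7 CPM), Serpina1e (309.3 CPM) and the sum (478.4 CPM), and the highest for Serpina1b (32.87 CPM) and Serpina1c (10.55 CPM). Its shares of Serpina1b (6.87%) and Serpina1c (2.21%) were also the highest of the group. These values come from the same library and are not independent. The P6 ileum of mouse 1 had the highest Serpina1d level of its group, at 6.022 CPM. The P6 jejunum of mouse 1 had the highest share of Serpina1a, at 26.5%, against 24.8% to 25% in the other 3.

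The regional difference differed between the ages by the interaction term for 2 members. For Serpina1a the log2 fold change of jejunum over ileum was larger at P6 by 6.80 (edgeR adjusted p = 0.00746). For Serpina1e it was larger at P6 by 3.30 (edgeR adjusted p = 0.01555).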

How the results depend on the processing

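No called direction turned in any alternative. The members called between the regions at P6 stayed at 3 and those called between the sexes at 0 in every alternative run. Between the regions at P36 the count fell from 2 to 1 with library totals, with no filter, in a fit of only the 8 libraries compared (where Serpina1c was not tested), with sex as a covariate, with libraries thinned to the smallest total and with the mouse as a replicate block, since the adjusted p of Serpina1c then ranged up to 0.07511. Leaving out each library gave 1 to 2, with 1 without the P6 jejunum of mouse 1, the P6 ileum of mouse 2, the P36 jejunum of mice 1, 2 or 3, or the P36 ileum of mice 2, 3 or 4 (adjusted p up to 0.113). The interaction count was 1 with thinned libraries, 3 with DESeq2, where Serpina1b had an adjusted p of 0.04632, and 1 to 3 with a library left out: 1 without the P36 ileum of mouse 1 and 3 without the P6 jejunum of mouse 3. With age the counts were 4 to 5 in each region. Serpina1b passed the fold minimum in the ileum with sex as a covariate (-2.01), without the P6 ileum of mouse 3 (-2.08) and without the P36 ileum of mouse 3 (-2.17). The causes were not tested. The replicate block changed no other call. The summed level moved by less than the spread between replicates under every alternative, with 2.61 to 3.19 (regions at P6), -3.29 to -2.82 (regions at P36), -8.81 to -8.30 (age, jejunum) and -2.88 to -2.45 (age, ileum) when a library was left out. Library totals shifted every log2 fold change by -0.29 between the regions at P6 and by -0.13 at P36.

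The 17 share comparisons that passed stayed 17 per kilobase. Exact within-mouse sign flips of shares cannot go below p = 0.125, and an exact permutation of 3 libraries against 4 cannot pass the adjusted threshold, so no call was sought there. By Spearman's rho 1 of the 5 genes most like the sum, Shisa5, was again among the first 5, and none was by deviations from the group means. Depth limits Serpina1a, Serpina1d and Serpina1e at P36, with 5 to 42 counts a group.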
